A study of Mus musculus with 8 samples.

Results

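Whether the label Plek2-/- went with the same expression differences in red cell precursors as in earlier blood progenitors was measured gene by gene. The quantity is an interaction on the log2 scale: the difference between libraries labelled Plek2-/- and Plek2+/+ in erythroblasts, minus the same difference in progenitors. A negative interaction means that the erythroblast difference lay below the progenitor difference. The members are the autosomal genes with enough counts to test, 12838 of the 23337 genes in the deposited count table, of which 22066 (94.6%) lie on autosomes.

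The libraries came from bone marrow of C57BL/6 mice, 4 months old. All 4 groups carried JAK2V617F/+, that is, 1 copy of the kinase gene Jak2 with the activating V617F change, and the groups differed in cell population and in the Plek2 label. Erythroblasts labelled JAK2V617F/+ Plek2+/+ and JAK2V617F/+ Plek2-/- were TER119-positive cells taken directly from marrow. Progenitors with the same 2 genotype labels were Kit-positive cells taken from the lineage-negative marrow fraction. Each group holds 2 libraries. The sources used here do not say whether these came from separate mice, so p-values measure the spread between libraries, which may be technical. How the JAK2V617F and Plek2 alleles were made, and whether animals were pooled, is not given in the sources used here.

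JAK2 is the kinase that carries the erythropoietin signal in red cell precursors, and the V617F change keeps it active in polycythemia vera, a disease with too many red cells. Plek2 encodes pleckstrin-2, a membrane-binding protein of late erythroblasts that acts on the actin cytoskeleton. Lineage-negative Kit-positive marrow holds stem cells and the early progenitors of red cells, platelets, neutrophils, eosinophils and other blood cells. TER119 marks cells that are committed to the red lineage.

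Library totals ran from 16038035 to 23521726 counts, and a gene with no count can still be present at up to 3 counts, or 0.128 to 0.187 CPM (counts per 1e+06 counts). Both libraries of each group differed by more than counting error (chi-square divided by its degrees of freedom, 4.95 to 13.4), and the biological coefficient of variation over all 8 libraries was 7.62%. Klf1, a transcription factor that drives the red cell programme, averaged 689.1 CPM in erythroblasts labelled Plek2+/+, against 51.8 CPM in progenitors of that label. Kit averaged 18.7 and 149.5 CPM in the same groups, so both populations held the defining markers of their labels. The 4 libraries labelled Plek2+/+ had 37172 to 90268 counts of Xist and at most 5 of Ddx3y, and the 4 labelled Plek2-/- had 46 to 65 counts of Xist and at least 2882 of Ddx3y. Sex and genotype label therefore coincided in all 8 libraries, and a difference by genotype cannot be told apart from a difference by sex. In each bulk population, fewer cells of a type and less RNA per cell cannot be told apart.

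Plek2 itself (chr12:78888691-78906964, minus strand, GRCm38) went opposite ways in the 2 populations. Its level was 108 and 129 CPM in erythroblasts labelled Plek2+/+, against 48.2 and 53.1 CPM in erythroblasts labelled Plek2-/-. It was 1.36 and 0.708 CPM in progenitors labelled Plek2+/+, against 5.06 and 5.67 CPM in progenitors labelled Plek2-/-, from 130 and 173 counts. Plek2 transcripts were thus lower with the label in erythroblasts and higher with it in progenitors, with no overlap between groups in either population. The interaction was -3.66 (SE 0.26, edgeR quasi-likelihood test, adjusted p = 6.34e-05). The labels do not say which part of Plek2 the allele removes. The progenitor direction goes against the label, so "labelled" is kept for the libraries throughout, and every direction given for progenitors rests on those labels.

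Across autosomal genes the interaction passed the edgeR quasi-likelihood test (Benjamini-Hochberg adjusted p below 0.05) for 727 of 12838 genes, which is 5.66%. Of these, 698 (5.44%) were negative and 29 (0.226%) were positive. The median interaction over all tested genes was 0.04, with quartiles of -0.23 and 0.20. Among the 698 negative genes the median interaction was -0.98, the median erythroblast difference -0.50 and the median progenitor difference 0.51. The erythroblast difference was below 0 and the progenitor difference above 0 for 655 of the 698 (93.8%), while 20 had both above 0 and 23 had both below 0. Of the 29 positive genes, 27 had an erythroblast difference above 0 and a progenitor difference below 0. Both sets of genes were chosen by the interaction, and that choice by itself favours opposite signs in the populations. The share of all tested genes with opposite signs is not given here, so these counts are no test of opposite directions. These signs rest on the progenitor labels, which Plek2 goes against: with those labels turned, the 655 genes would have differences below 0 in both populations. The sex-linked genes, by contrast, separated the labels in the same way in both populations.

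Each population was also tested by itself in the same fit. In erythroblasts 446 genes passed (3.47%), 419 of them lower with the label (3.26%) and 27 higher (0.210%). In progenitors 513 passed (4.00%), 465 of them higher (3.62%) and 48 lower (0.374%). Of the 698 negative genes, 103 passed in both populations, lower in erythroblasts and higher in progenitors. This split depended on single libraries. The erythroblast count was 107 and 15 without the first and second erythroblast library labelled Plek2+/+, and 961 and 45 without the first and second labelled Plek2-/-. The progenitor count was 318 and 165 without the first and second progenitor library labelled Plek2+/+, and 259 without the second labelled Plek2-/-. Of the 103, 1 passed in both populations without the second erythroblast library labelled Plek2+/+ and 5 without the second labelled Plek2-/-. With the first erythroblast library labelled Plek2+/+ left out 33 did so, and 63, 36 and 59 did so without the first or second progenitor library labelled Plek2+/+ or the second labelled Plek2-/-. With all libraries, a further 286 passed in progenitors alone, 188 in erythroblasts alone, and 121 in neither, where only the difference between the populations passed. In libraries labelled Plek2+/+, 361 of the 698 negative genes (51.7%) had higher expression in progenitors than in erythroblasts, against 52% of all tested genes. This comparison was not made in libraries labelled Plek2-/-, where the order can differ. Over all 12838 genes the 2 differences had a Pearson correlation of -0.00815 and a Spearman correlation of -0.06, as a description across genes that share their libraries.

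**Figure D1:**
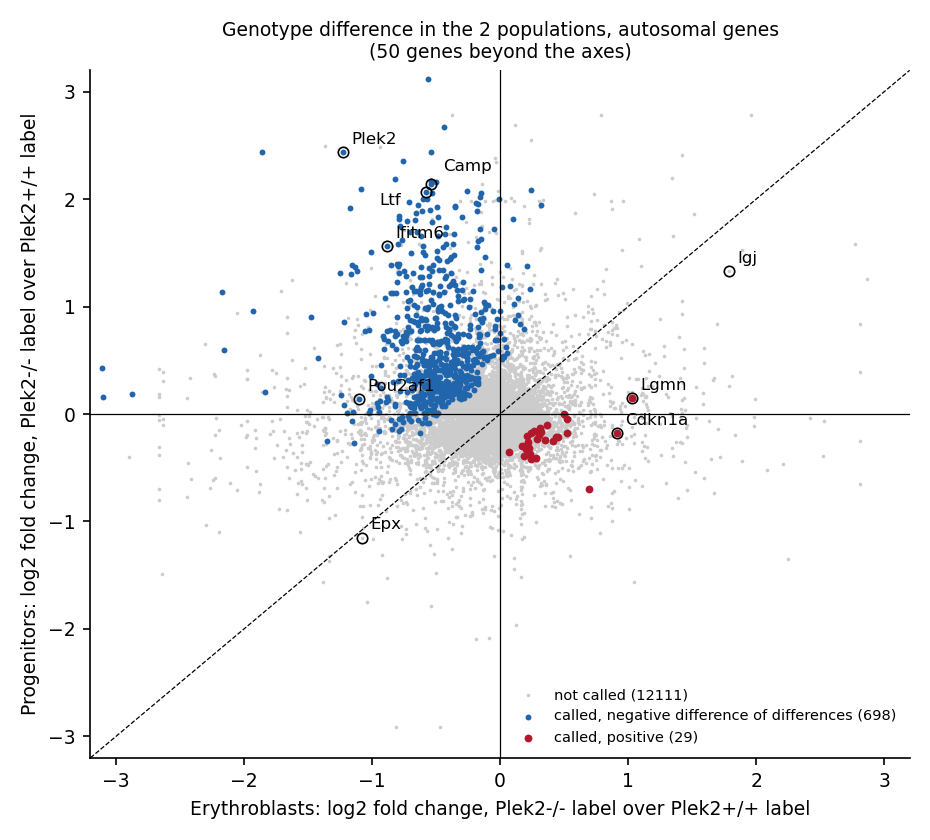
Log2 difference between labels in erythroblasts (x axis) against that in progenitors (y axis), 1 point per tested autosomal gene. Colours mark genes with a negative or a positive interaction that passed the test, the dashed line marks equal differences, and 50 genes lie beyond the axis limits of 3.2. Most negative genes sit in the upper left part, where 655 of 698 lie, a position that choosing genes by a negative interaction favours.

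The genes of mature neutrophils were the clearest group. Neutrophils fill their late granules and cytosol with antimicrobial and matrix-digesting proteins, made in waves as the cells mature. All 26 tested members of the late granule and cytosol list had a negative interaction, with a median of -2.33 against 0.04 over all tested genes, and 24 of 26 passed the test. In erythroblasts the median difference was -0.66, and 10 members passed, all lower with the label. In progenitors the median difference was 1.57, and 23 members passed, all higher with the label. Between 23 and 25 members passed when any 1 library was left out.

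Ltf, which encodes the iron-binding granule protein lactoferrin, had 2796 and 3205 CPM in erythroblasts labelled Plek2+/+ and 2157 and 1853 CPM in erythroblasts labelled Plek2-/-. In progenitors it had 1079 and 577 CPM against 2827 and 4107 CPM. The label groups did not overlap in either population, and their order turned over between the populations. The interaction of Ltf was -2.65 (SE 0.34, edgeR adjusted p = 0.000532), a 6.27-fold lower ratio of labels in erythroblasts than in progenitors. The progenitor part was a 4.19-fold rise (edgeR adjusted p = 0.000297), while the erythroblast part was 1.5-fold lower and did not pass (edgeR adjusted p = 0.236). Camp, the precursor of the antimicrobial peptide cathelicidin, had 1269 and 1362 against 968 and 839 CPM in erythroblasts. In progenitors Camp had 406 and 200 against 1107 and 1569 CPM, and its interaction was -2.69 (SE 0.35). Ngp, a granule protein of the cystatin family, and Lcn2, the siderophore-binding lipocalin, had interactions of -2.61 and -2.63. S100a8, a calcium-binding protein that makes up much of the neutrophil cytosol, had 4701 and 5455 against 3586 and 3355 CPM in erythroblasts, and 1609 and 1007 against 4271 and 5463 CPM in progenitors. In Ltf, Camp and S100a8 the levels of erythroblasts labelled Plek2+/+ and of progenitors labelled Plek2-/- overlapped, and the progenitors labelled Plek2+/+ were lowest.

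Ifitm6 and Anxa1 passed in each population as well as in the interaction. Ifitm6, a membrane protein of the interferon-induced family, had an interaction of -2.45, from 1.85-fold lower in erythroblasts and 2.96-fold higher in progenitors. Anxa1, which encodes the membrane-binding protein annexin A1, had an interaction of -1.99, from 1.6-fold lower and 2.48-fold higher. Ankrd22, an ankyrin-repeat gene that is on no list, had the same pattern with an interaction of -2.68.

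Transcription factors of the C/EBP family, among them C/EBP-epsilon, drive the late granule genes, so the RefSeq promoters of the list are shown for the letters TTGCNNAA on either strand, a C/EBP-like motif. RefSeq windows of the 250 bases before the start (GRCm38.p6) matched 23 of the 26 genes. The motif was found in 9 of the 23 (39.1%), against 9.56% of all 32851 windows in the table. The letters AGATAA, searched on either strand for factors of the erythroid lineage, were in 5 of the 23 (21.7%) against 9.99%. The 30 bases around each TTGCNNAA match are given with the match in capitals, on the strand of the gene. The stretch of Retnlg is cut short where the window begins, and the second of Ngp runs a few bases past the start:
Ltf, chr9:111019206-111019235, plus strand, 75 bases before the start: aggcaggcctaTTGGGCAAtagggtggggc
Lcn2, chr2:32387937-32387966, minus strand, 216 before: agcccttcctgTTGCTCAAccttgcacagt
Ngp, chr9:110419659-110419688, plus strand, 138 before: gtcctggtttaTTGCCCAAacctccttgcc
Ngp, chr9:110419786-110419815, plus strand, 11 before: accggcagttcTTGGGCAAggcagtctcaa
S100a9, chr3:90695939-90695968, minus strand, 236 before: ggtaggctgtcTTGCTTAAgatttgggcgg
Mmp8, chr9:7558399-7558428, plus strand, 19 before: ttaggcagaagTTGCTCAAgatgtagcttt
Stfa1, chr16:36277028-36277057, plus strand, 109 before: tgcagtaagacTTGCCTAAggccacactca
Anxa1, chr19:20390796-20390825, minus strand, 143 before: tccgggagtagTTTTGCAAgacttgtttct
Retnlg, chr16:48872358-48872380, plus strand, 246 before: agctTTCTGCAAggcattccagg
Adam8, chr7:139992763-139992792, minus strand, 219 before: gaactgcagagTTGCTCAAattggtctgtt
A match is a description of the letters and not a measured binding site. Camp, which had one of the lowest interactions of the list, had no match in its window.

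**Figure D2:**
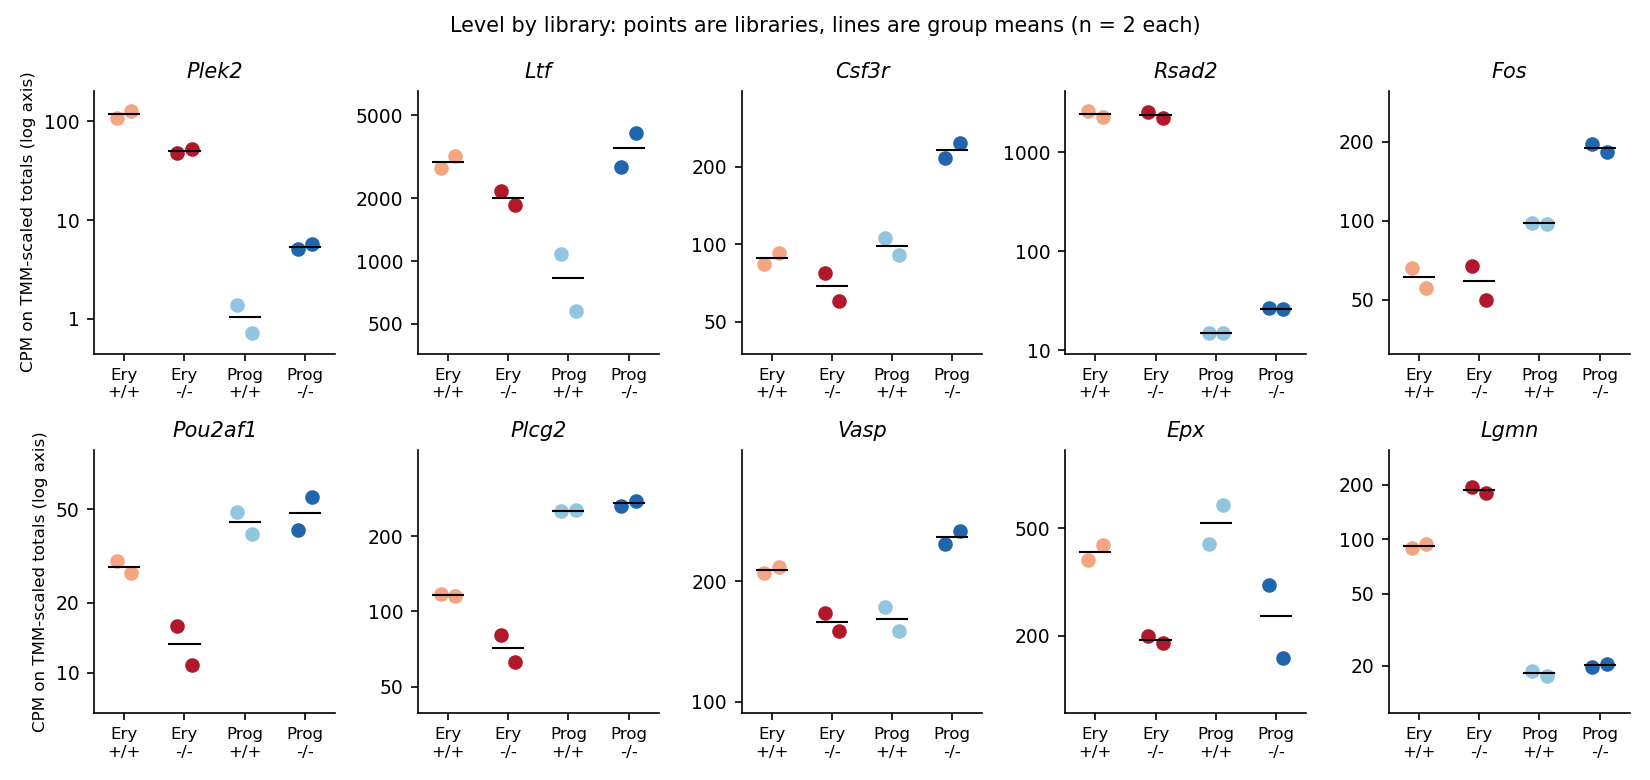
CPM on TMM-scaled totals (log axis, with its own range in each panel) of 10 genes in each library; lines are group means, n = 2 libraries per group. Ltf is lower with the Plek2-/- label in erythroblasts and higher in progenitors, Rsad2 and Fos separate by label only in progenitors, and Pou2af1 only in erythroblasts.

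Receptors through which neutrophils find and grip their targets followed the granule genes. Of 29 tested members, 23 had a negative interaction that passed, and all 29 were below 0, with a median of -1.63. The erythroblast median was -0.49 and the progenitor median 1.14. Csf3r, the receptor for the neutrophil growth factor G-CSF, had 84.0 and 92.9 against 77.4 and 60.2 CPM in erythroblasts and 106 and 91.2 against 216 and 248 CPM in progenitors. The progenitor groups were far apart while the erythroblast groups lay close together, and the interaction was -1.60 (SE 0.17, edgeR adjusted p = 0.000271). Fpr1, a receptor for bacterial formyl peptides, had an interaction of -2.03, and Cxcr2, the main chemokine receptor of neutrophils, had one of -2.06. Without single libraries 21 to 27 receptor genes passed.

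An earlier step of neutrophil formation was less uniform. Promyelocytes, the stage before the late granules, make the primary granules with myeloperoxidase and elastase. On that list 11 of 23 genes passed, all negative, and the median of -0.45 came from an erythroblast median of -0.46 and a progenitor median of 0.07. In erythroblasts 10 of the 23 were lower with the label, and in progenitors 5 were higher. Mpo (myeloperoxidase) and Elane (neutrophil elastase) had interactions of -0.22 and -0.44 that did not pass (edgeR adjusted p = 0.542 and 0.234). Cebpe, which encodes C/EBP-epsilon, had 64.4 and 70.9 against 48.8 and 37.1 CPM in erythroblasts and 38.9 and 35.8 against 66.3 and 74.7 CPM in progenitors. It fell 1.58-fold in the first and rose 1.89-fold in the second, with an interaction of -1.57 (SE 0.17, edgeR adjusted p = 0.000271). Serpinb1a, an inhibitor of the granule proteases, had the same pattern with -1.24. Without the first progenitor library labelled Plek2+/+ 7 of the 23 genes passed.

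The summed level of the late granule list shows the size of this change. It made up 1.81% and 1.98% of all counts in erythroblasts labelled Plek2+/+ and 1.39% and 1.23% in erythroblasts labelled Plek2-/-. In progenitors it was 1.29% and 0.85% against 3.05% and 3.97%. The primary granule list held 1.03% and 1.13% in progenitors labelled Plek2+/+ and 0.949% and 1.02% in those labelled Plek2-/-. In progenitors the late list was therefore higher with the label in both libraries, while the early list averaged 1.08% without and 0.985% with it. The labels do not name the antibodies of the lineage gate, and how many mature neutrophils either purified population held was not tested.

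**Figure D3:**
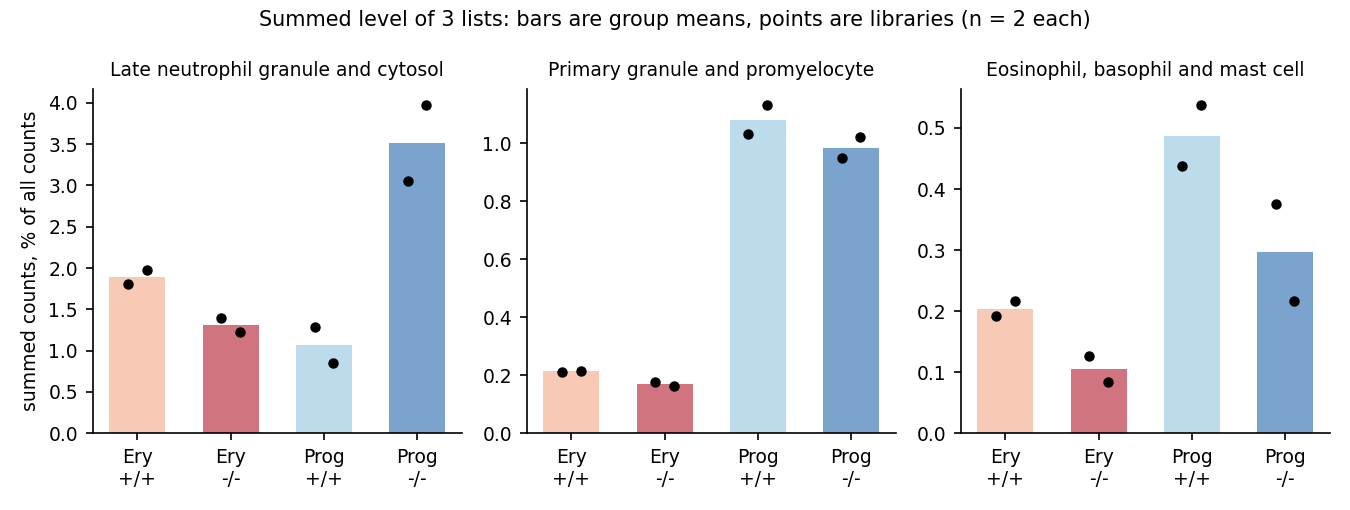
Summed counts of the late neutrophil, primary granule and eosinophil lists as a percentage of all counts, with bars at group means (from 0) and points at libraries, n = 2 per group. The late neutrophil share runs from 0.85% to 3.97%, highest in the 2 progenitor libraries labelled Plek2-/-.

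The eosinophil, basophil and mast cell list had medians below 0 in both populations. Of its 22 tested genes 2 passed in erythroblasts, both lower with the label, and in progenitors 3 passed as lower and 1 as higher. Their median difference was -0.59 in erythroblasts and -0.52 in progenitors, and the median interaction was -0.05. Epx, the eosinophil peroxidase, had 381 and 435 against 199 and 187 CPM in erythroblasts and 437 and 612 against 307 and 166 CPM in progenitors. It fell 2.11-fold in erythroblasts (edgeR adjusted p = 0.0206) and 2.22-fold in progenitors (edgeR adjusted p = 0.00797). The interaction of Epx was 0.07 with a 95% interval from -0.60 to 0.74 (edgeR adjusted p = 0.930), which leaves room for a difference of up to about that size in either direction. Hdc, which makes histamine, was the only one of 22 members to pass for the interaction (4.55%, against 5.66% of all tested genes), at -1.25, and it also stands on the primary granule list. It fell 1.57-fold in erythroblasts and rose 1.51-fold in progenitors. The summed share of the list was 0.192% and 0.216% against 0.126% and 0.0833% in erythroblasts, and 0.437% and 0.537% against 0.375% and 0.217% in progenitors.

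Interferon genes differed by label mainly in progenitors. Interferon response genes defend cells against viruses, and 9 of 48 passed with a negative interaction, with a list median of -0.31. The median difference was -0.10 in erythroblasts and 0.20 in progenitors. The progenitor difference was the larger in size for 33 of 48, against 6005 of all 12838 tested genes. Rsad2, the antiviral enzyme viperin, had 14.8 and 14.9 CPM in progenitors labelled Plek2+/+ and 26.8 and 25.8 CPM in those labelled Plek2-/-. In erythroblasts, where it was far more abundant, it had 2615 and 2282 against 2541 and 2227 CPM. The label groups overlapped in erythroblasts and were apart in progenitors, and the interaction was -0.86 (SE 0.16, edgeR adjusted p = 0.00463). Samd9l, another interferon-induced gene, had an interaction of -0.90. The count on this list fell to 5 without the first erythroblast library labelled Plek2+/+ and to 4 without the second progenitor library labelled Plek2+/+, and rose to 23 without the first erythroblast library labelled Plek2-/-.

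Cytokines and their brakes made up a further list. On the inflammation list 11 of 38 genes passed, all negative, with a median of -0.51. The medians were -0.16 in erythroblasts and 0.27 in progenitors, where 11 passed as higher. Il1b, the cytokine interleukin-1 beta, had 40.2 and 42.3 against 47.8 and 27.1 CPM in erythroblasts, where the groups overlapped. It had 28.4 and 20.3 against 84.7 and 65.4 CPM in progenitors, and its interaction was -1.78 (SE 0.31). Il1rn, the natural antagonist of the interleukin-1 receptor, rose 3.30-fold in progenitors, was 1.03-fold lower in erythroblasts and had an interaction of -1.77. Tnf, the cytokine tumor necrosis factor, had one of -1.17. Several of these genes are made by neutrophils, and the summed level of neutrophil genes given above moved with them; its part in the result was not tested. The count was 7 without the second progenitor library labelled Plek2+/+ and 19 without the first erythroblast library labelled Plek2-/-.

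Immediate-early genes, which cells switch on within minutes of a stimulus, had medians of opposite sign in the 2 populations. Of 30 tested, 12 passed, all negative, and the list median was -0.57. The medians were -0.11 in erythroblasts and 0.21 in progenitors. The erythroblast difference was the larger in size for 17 of 30, near the share of all tested genes (6833 of 12838). Fos, a subunit of the AP-1 transcription factor, had 66.2 and 55.5 against 67.5 and 49.8 CPM in erythroblasts and 97.8 and 97.5 against 196 and 183 CPM in progenitors. The erythroblast groups overlapped, the progenitor groups were apart by a 1.94-fold rise, and the interaction was -1.02 (SE 0.17, edgeR adjusted p = 0.00313). Klf6, a zinc finger factor, had an interaction of -0.70. Only 3 members passed without the second progenitor library labelled Plek2+/+, whereas 12 passed with all libraries.

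Slc40a1, Slc7a11 and Gadd45a, each named from a different list, changed in progenitors without a matching difference in erythroblasts. Slc40a1, the iron exporter ferroportin, had 83.6 and 75.2 against 140 and 169 CPM in progenitors and 445 and 484 against 473 and 454 CPM in erythroblasts. Its interaction was -0.96 (SE 0.14, edgeR adjusted p = 0.00105), and its progenitor rise was 1.95-fold. Slc7a11, the cystine importer, rose 2.59-fold in progenitors and was 1.16-fold higher in erythroblasts, with an interaction of -1.17. The integrated stress response list, which holds Slc7a11, had 1 negative and 1 positive call among 27 genes. That is 7.41%, against 5.66% of all tested genes. The median difference of the list was 0.10 in erythroblasts and -0.07 in progenitors, and its median interaction was 0.12. Gadd45a, a growth arrest gene induced by DNA damage, rose 1.84-fold in progenitors and was 1.09-fold higher in erythroblasts, with an interaction of -0.76. Macrophage genes are also in view here, since Slc40a1 is high in the macrophages that surround erythroblasts. C1qa, a complement gene of such macrophages, had a mean of 133.7 and 133.1 CPM in the 2 erythroblast groups and of 2.47 and 3.79 CPM in the 2 progenitor groups. Of the monocyte and macrophage list 2 of 33 genes passed (6.06%). The list held 0.370% and 0.359% against 0.385% and 0.332% of counts in erythroblasts. Its share in progenitors was 0.503% and 0.564% against 0.484% and 0.471%. In progenitors C1qa rose 1.53-fold and Vcam1, an adhesion molecule of such macrophages, 1.67-fold, while C1qb was 1.62-fold higher and did not pass. The part of macrophages in the values of Slc40a1 was not tested. That list had 7 calls without the first erythroblast library labelled Plek2-/- and 4 without the first progenitor library of that label.

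Other genes had their interaction mainly from the erythroblasts, and the B cell list leaned that way. The erythroblast difference was the larger in size for 24 of its 28 genes, against 6833 of all 12838 tested genes. On that list 8 of 28 genes passed, all negative, and the median of -0.92 came from -0.77 in erythroblasts and 0.11 in progenitors. Pou2af1, a transcriptional coactivator of B cells, had 30.1 and 26.7 against 15.8 and 10.8 CPM in erythroblasts and 48.9 and 39.4 against 40.7 and 56.2 CPM in progenitors. The groups were apart in erythroblasts, where Pou2af1 fell 2.15-fold, and overlapped in progenitors. The interaction was -1.24 (SE 0.26, edgeR adjusted p = 0.0117). Igj, the joining chain of secreted antibodies, differed from the rest of the list. It rose 3.45-fold in erythroblasts and 2.51-fold in progenitors, and its interaction of 0.46 did not pass (95% interval -0.22 to 1.14, edgeR adjusted p = 0.482).

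The B cell count depended on single libraries more than most. It was 0 without the second progenitor library labelled Plek2+/+ and 16 without the first erythroblast library labelled Plek2-/-. It was 3 and 5 without the first and second erythroblast library labelled Plek2+/+ and 5 without the second erythroblast library labelled Plek2-/-. It was 14 and 4 without the first and second progenitor library labelled Plek2-/-. As a sum the list did not follow its median, since Cd24a, which erythroblasts also express, held most of its counts. T and NK cell genes had no call among 28 by edgeR, DESeq2 or limma-voom, with 2 at an unadjusted p below 0.05 by edgeR. Their medians were -0.43 in erythroblasts and -0.30 in progenitors.

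Plcg2, Ifitm1 and Slc2a1, from other lists, fell in erythroblasts without a call in progenitors. Plcg2, a phospholipase that acts downstream of antigen and cytokine receptors, had 118 and 116 against 80.3 and 62.8 CPM in erythroblasts and 252 and 254 against 265 and 278 CPM in progenitors. It fell 1.63-fold in erythroblasts, with an interaction of -0.81 (SE 0.14, edgeR adjusted p = 0.00347). Ifitm1, an interferon-induced membrane protein that is also a progenitor gene, fell 1.92-fold in erythroblasts and was 1.01-fold higher in progenitors. Slc2a1, the glucose transporter, had 9.12 and 10.4 against 6.26 and 4.83 CPM in erythroblasts and 19.2 and 19.96 against 21.6 and 19.7 CPM in progenitors, with an interaction of -0.90. In Ifitm1 and Slc2a1 the label groups overlapped in progenitors. Slc2a1 was the only one of 24 red cell membrane genes to pass. That count was 0 without the second erythroblast library labelled Plek2+/+, the second erythroblast library labelled Plek2-/- or either progenitor library labelled Plek2+/+, and 5 without the first progenitor library labelled Plek2-/-.

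Genes of the actin cytoskeleton, the system on which pleckstrins act, drew on both populations, with more calls in erythroblasts. Of 52 tested, 20 passed, all negative, and 47 were below 0. The list median of -0.43 came from -0.28 in erythroblasts and 0.12 in progenitors. In erythroblasts 15 members passed as lower, and in progenitors 7 passed as higher. The erythroblast difference was the larger in size for 33 of 52, against 6833 of all 12838 tested genes. Vasp, which promotes growth of actin filaments, had 210 and 217 against 167 and 150 CPM in erythroblasts and 172 and 150 against 248 and 267 CPM in progenitors. It fell 1.35-fold in the first and rose 1.6-fold in the second, with an interaction of -1.11 (SE 0.12, edgeR adjusted p = 0.000325). Gsn, the filament-cutting protein gelsolin, had an interaction of -1.54, and Rac2, a small GTPase of blood cells, had one of -0.77. Plek, the platelet and white cell relative of Plek2, had an interaction of -0.72, with a rise of 1.42-fold in progenitors. Cfl1, the main cofilin of these cells, differed little, at -0.08 (95% interval -0.32 to 0.16). Neutrophils use many of the called genes, and the summed level of the late neutrophil list moved with them; its part was not tested. The count was 11 without the second and 12 without the first progenitor library labelled Plek2+/+, and 13 without the second erythroblast library labelled Plek2+/+.

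Signalling downstream of JAK2 was called in part. On the JAK-STAT list 8 of 39 genes passed, all negative, with a median of -0.18. Socs3, a feedback inhibitor of cytokine receptors, had 13.2 and 13.9 against 27.6 and 26.5 CPM in progenitors and 20.1 and 27.8 against 20.03 and 20.3 CPM in erythroblasts. Its interaction was -1.24 (SE 0.19), from the progenitors. Stat3, a transcription factor of the pathway, fell 1.38-fold in erythroblasts and was 1.18-fold higher in progenitors, with an interaction of -0.71. Jak2 itself had an interaction of -0.13 and Stat5a one of 0.15, and neither passed (edgeR adjusted p = 0.644 and 0.5996). The JAK-STAT count was 5 without the first erythroblast library labelled Plek2+/+, the first progenitor library labelled Plek2+/+ or the second progenitor library labelled Plek2-/-, and 3 without the second progenitor library labelled Plek2+/+. On the list for phosphoinositides, the lipid signals that pleckstrins bind, 3 of 34 genes passed: Sgk1, Plcg2 and Pik3r5. That is 8.82%, against 5.66% of all tested genes, and the list median was -0.04. Without the first Plek2-/- labelled library of erythroblasts 7 passed, and without that of progenitors 5 did.

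Sugar use had a few strong members. Of 30 glycolysis and hypoxia genes 8 passed, all negative. Slc16a3, the lactate exporter, had 59.7 and 60.1 against 37.3 and 27.8 CPM in erythroblasts and 44.9 and 42.0 against 75.5 and 73.1 CPM in progenitors. It fell 1.85-fold in the first and rose 1.71-fold in the second, with an interaction of -1.66 (SE 0.16, edgeR adjusted p = 0.000270). Pfkfb4, an enzyme that sets the pace of glycolysis, had the same pattern with -1.54. The count was 5 without the second progenitor library labelled Plek2+/+ or the second labelled Plek2-/-.

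**Figure D4:**
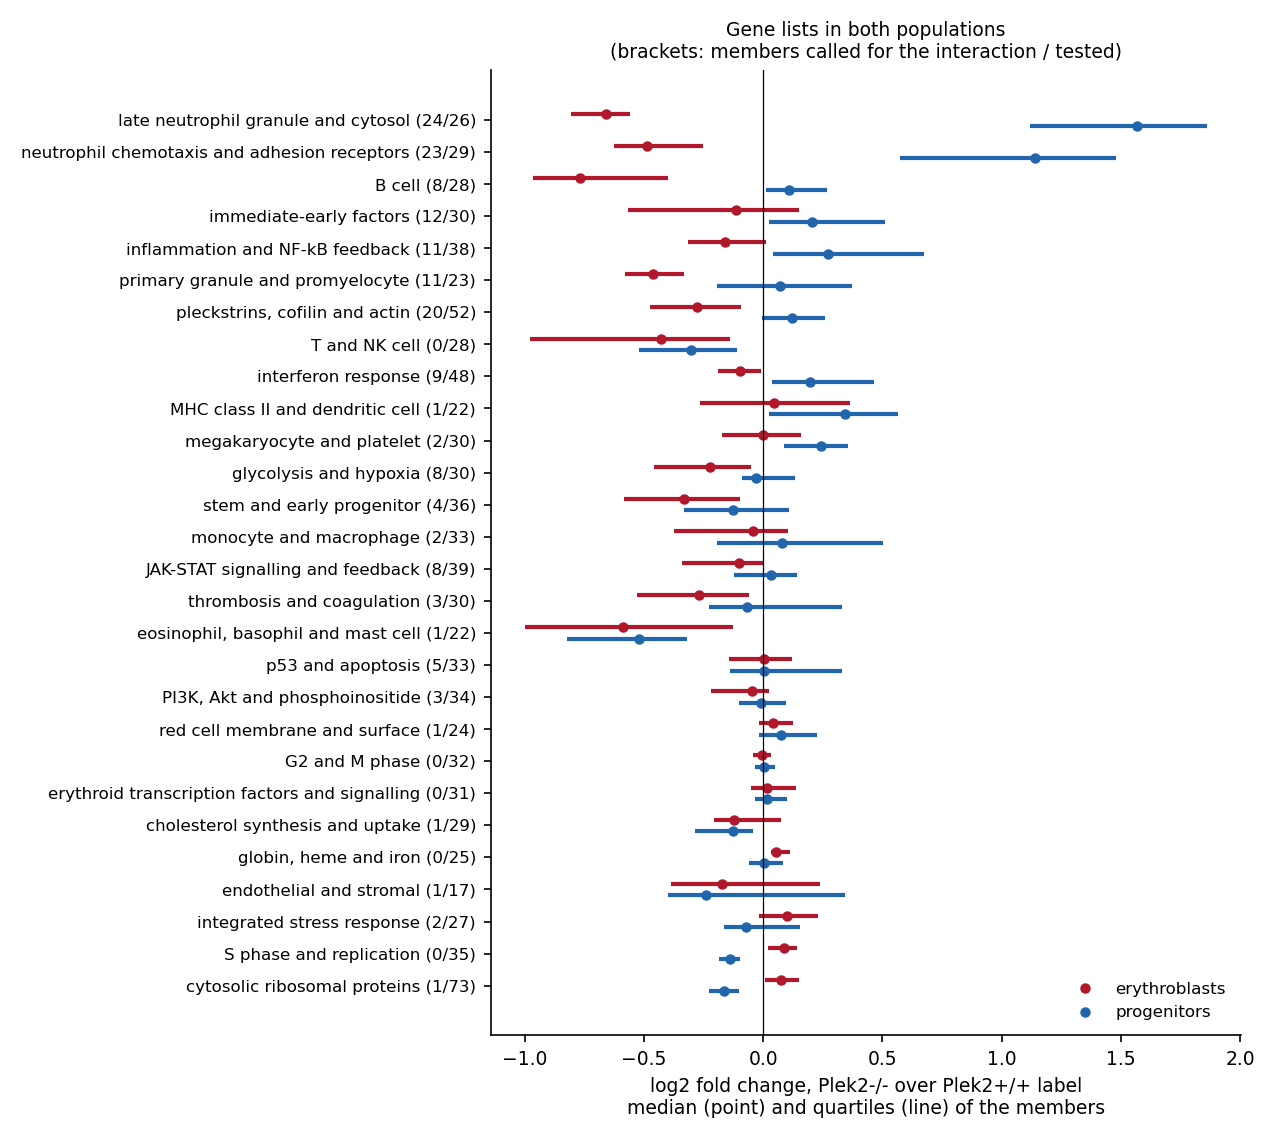
Median (point) and quartiles (line) of the log2 difference between labels over the tested members of each of 28 gene lists, in erythroblasts and in progenitors, ordered by the median interaction. Late neutrophil genes are at -0.66 and 1.57, and B cell genes are apart mainly through erythroblasts. Red cell lists and the G2 and M phase list lie near 0 in both, and replication genes are at 0.09 and -0.14.

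The other lists had fewer calls, several of them near the 5.66% of all tested genes. Of 36 stem and early progenitor genes 4 passed, among them Prom1, a surface protein of stem cells, at -1.66, the lowest value. The list medians were -0.33 in erythroblasts and -0.13 in progenitors, and 21 of the 36 interactions were below 0. Prom1 was the only member to pass as higher in progenitors, and 1 other passed as lower. Without the second progenitor library labelled Plek2+/+ or the second labelled Plek2-/- 2 of these 36 passed. Of 33 p53 and apoptosis genes 4 passed with a negative and 1 with a positive interaction. Fas, the death receptor, fell 2.03-fold in erythroblasts and rose 1.72-fold in progenitors, with an interaction of -1.80. The p53 and apoptosis count was 2 without the first and 3 without the second progenitor library labelled Plek2+/+, and 3 without the second erythroblast library labelled Plek2+/+. On the thrombosis list 3 of 30 passed, led by Plaur, the urokinase receptor, at -1.58, and 9 passed without the first erythroblast library labelled Plek2-/-. Megakaryocyte genes had 2 calls of 30 (6.67%), namely Ptgs1, which makes thromboxane precursors, at -1.03 and Plek. Without the second erythroblast library labelled Plek2+/+ 6 passed, without the first erythroblast library labelled Plek2-/- 5, and without the second progenitor library labelled Plek2+/+ 1. Id2, an inhibitor of DNA-binding factors, at -0.90 was the only one of 22 antigen presentation genes to pass (4.55%), and 3 passed without the first erythroblast library labelled Plek2-/-. Acta2, smooth muscle actin, at -1.91 was the only one of 17 endothelial and stromal genes (5.88%). That count was 0 without the first erythroblast library labelled Plek2+/+, the second progenitor library labelled Plek2+/+ or the second Plek2-/- labelled progenitor library.

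The red cell programme itself did not differ detectably. None of 25 globin, heme and iron genes passed by edgeR, DESeq2 or limma-voom, and 1 had an unadjusted p below 0.05 by edgeR. Their median interaction was 0.06, with medians of 0.05 in erythroblasts and 0.01 in progenitors. Of 31 erythroid transcription factor and signalling genes none passed by edgeR or limma-voom, 1 by DESeq2, and 2 had an unadjusted p below 0.05 by edgeR. Beta-s, the adult beta globin gene now named Hbb-bs, had 77770 and 83160 against 68530 and 60460 CPM in erythroblasts. In progenitors it had 50.4 and 45.6 against 55.1 and 127 CPM, so its interaction of -1.25 (SE 0.40, edgeR adjusted p = 0.106) rested in part on 1 progenitor library. Xpo7, a nuclear exporter that erythroblasts use as they condense, had an interaction of 0.32 (SE 0.15, edgeR adjusted p = 0.262).

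Genes of cell division were also without calls. None of 35 replication genes passed by edgeR, while DESeq2 and limma-voom called 1 each. All 35 had an interaction above 0, as had 55.1% of all tested genes, with a median of 0.23. Their median difference was 0.09 in erythroblasts. In progenitors it was -0.14, against -0.05 over all tested genes, and all 35 were below 0 there though none passed. Of the 35, 11 had an unadjusted p below 0.05, against 18.3% of all tested genes. Without the first erythroblast or the first progenitor library labelled Plek2-/-, edgeR called 1 of them. Rrm1, a subunit of ribonucleotide reductase, had an interaction of 0.26 (95% interval -0.03 to 0.56). Of 32 genes of the G2 and M phases none passed by edgeR, DESeq2 or limma-voom, none had an unadjusted p below 0.05, and the median of -0.01 became 0.02 when libraries were scaled by their totals. Mki67, a marker of dividing cells, had an interaction of 0.10 (95% interval -0.29 to 0.50). The genes of cytosolic ribosomes had a median interaction of 0.26, with 68 of 73 above 0. A single one of them passed, Rps2, at 0.52, and 16 of the 73 had an unadjusted p below 0.05, near the share of all tested genes.

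Few genes had a positive interaction, and their sizes were small. Of the 29, 2 exceeded 2-fold, and the median was 0.53. Lgmn, a lysosomal protease, had 89.5 and 94.1 against 195 and 180 CPM in erythroblasts and 18.8 and 17.6 against 19.7 and 20.6 CPM in progenitors. It rose 2.04-fold in erythroblasts and was 1.11-fold higher in progenitors, with an interaction of 0.88 (SE 0.12, edgeR adjusted p = 0.000769). Cdkn1a, the cell cycle inhibitor p21, had 8.26 and 7.06 against 12.8 and 15.98 CPM in erythroblasts and 11.3 and 9.81 against 10.3 and 8.32 CPM in progenitors. It rose 1.88-fold in erythroblasts, and its interaction was 1.09 (SE 0.24, edgeR adjusted p = 0.0157). Gmpr, which converts GMP to IMP, and Dph5, which modifies an elongation factor, each rose 1.44-fold in erythroblasts, with interactions of 0.70 and 0.57.

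In a few positive genes the progenitors gave the call. Atp2b4, a calcium pump of the red cell membrane, had 181 and 187 against 132 and 146 CPM in progenitors and 810 and 802 against 896 and 1065 CPM in erythroblasts. It fell 1.32-fold in progenitors, with an interaction of 0.69 (SE 0.13, edgeR adjusted p = 0.00783). Tmem176b, a membrane protein of myeloid cells, fell 1.31-fold in progenitors, with an interaction of 0.58. Slc7a1, an arginine importer, at 0.44 passed for the interaction and in neither population alone. Aven, Cpped1 and Cep290, with interactions of 0.67, 0.67 and 0.59, also passed for the interaction alone.

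Other strongly negative genes were on no list. Orm1, the acute-phase protein orosomucoid, had 6.86 and 8.48 against 5.48 and 5.78 CPM in erythroblasts and 1.88 and 1.15 against 7.32 and 11.4 CPM in progenitors, with an interaction of -3.11. Inhba, a subunit of activin, had 5.33 and 7.20 against 5.71 and 2.99 CPM in erythroblasts and 2.07 and 1.01 against 6.93 and 9.07 CPM in progenitors, with an interaction of -2.97. Both had their interaction mainly from the progenitors. Slc6a12, a transporter of betaine, and Foxd4, a forkhead factor, had interactions of -3.19 (SE 0.58) and -3.09 (SE 0.69). Both were scarce, with 12 to 164 counts per library for Slc6a12 and 5 to 70 for Foxd4, so these sizes are uncertain. Card10 and Olfml2b had interactions of -2.60 and -2.59. Tmem181c-ps, at -2.66, is a pseudogene and is uncertain, since reads could be split between near-identical copies.

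Most of the called genes were on no list: 153 of the 727 were on at least 1 of the 28 lists and 574 were on none, 550 of those negative and 24 positive. Their positions were spread over the genome, with shares of called genes from 2.72% on chromosome 18 to 7.18% on chromosome 16. Alleles that came with the targeted locus would lie near Plek2 on chromosome 12. Within 10 Mb of it 12 of 158 tested genes passed for the interaction (7.59%), Fos among them. The share was 5.49% on the whole chromosome and 5.66% of all tested genes. Tested by population, 11 of the 158 passed in erythroblasts, where 3.47% of all tested genes did. In progenitors 15 of the 158 passed, against 4.00% of all tested genes. The cause of these shares was not tested. At the edge of the threshold, Cyfip2 with -0.78 (edgeR adjusted p = 0.0497) and Snrk with -0.54 (0.0498) passed, while Fam123a with -2.06 (0.0502) and Lrrc14 with 0.53 (0.0504) did not.

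The calls changed with single libraries. All 727 called genes kept their sign when any 1 of the 8 libraries was left out. These genes were chosen in the fit of all 8, and each such fit reuses the remaining libraries. Kept signs are therefore no independent test of the direction. The number of genes called ran from 392 without the second progenitor library labelled Plek2+/+ to 1143 without the first erythroblast library labelled Plek2-/-. Of the 727, 368 passed in all 8 such fits: 367 negative genes and 1 positive gene, Lgmn. Of the 62 called genes that the naming rule gives, 42 passed in all 8 fits. Pou2af1, Ptgs1 and Tmem181c-ps were lost only without the second progenitor library labelled Plek2+/+. Acta2, Foxd4 and Slc2a1 were lost without that library and without others. So were, among the positive genes, Atp2b4, Aven, Cep290, Cpped1, Dph5, Gmpr, Rps2, Slc7a1 and Tmem176b. Cdkn1a was lost without 4 libraries, namely the second of both erythroblast groups, the first progenitor library labelled Plek2+/+ and the second progenitor library labelled Plek2-/-. Negative genes made up 91.0% to 99.5% of the called genes in these fits.

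**Figure D5:**
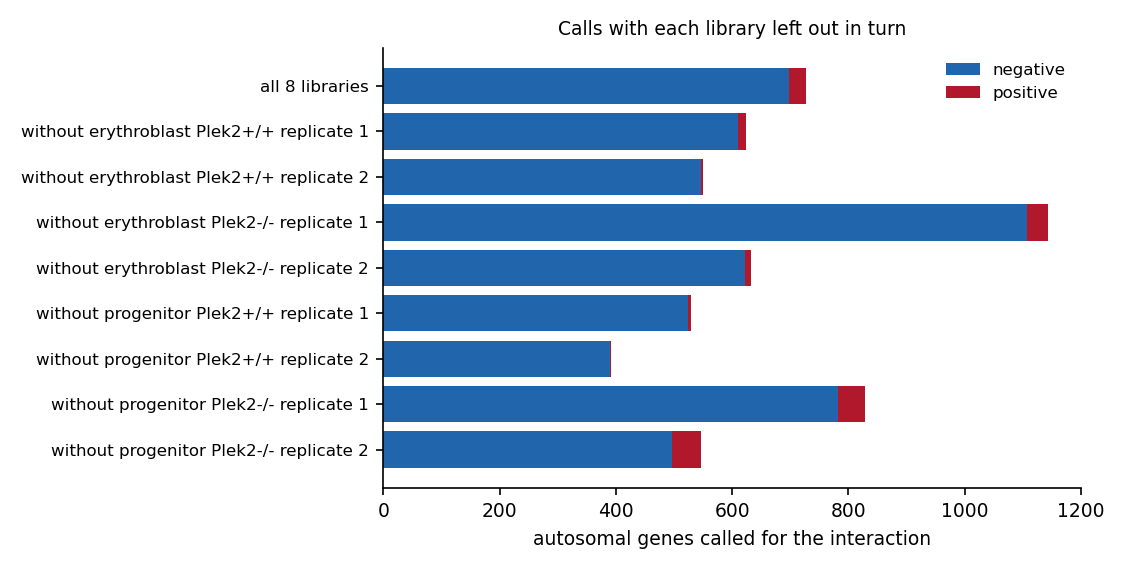
Number of autosomal genes with an interaction that passed the test, for all libraries and without each library in turn, split into negative and positive genes (bars start at 0). The count runs from 392 to 1143, and negative genes are the large majority in each bar.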

How the data were processed

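The deposited table of raw counts (whole numbers of reads per gene symbol, per the file headers) was used for all 8 libraries. Per the submitters' processing notes the tools were cutadapt 1.13, STAR 2.5.2a, HTSeq 0.6.1pl and DESeq2 1.14.1, with the build mm10. The role of each tool, the annotation and the strand setting are not stated there, so overlapping and antisense genes cannot be told apart.

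Genes were placed with GENCODE vM21 on GRCm38 (mm10) and RefSeq symbols. Of 23337 genes, 22066 were autosomal, 1042 were on X or Y and 229 were not placed. In R 4.3.3, edgeR 4.0.16 was run with 4 group means (quasi-likelihood F test) after filterByExpr and TMM scaling, and 13365 genes were tested and p-values adjusted by Benjamini-Hochberg over all of them. The 12838 autosomal genes were then kept. The threshold was an adjusted p of 0.05 with no fold minimum. Folds are back-transformed from fitted log2 differences, and levels are CPM on TMM-scaled totals. Levels are compared between libraries and not between genes. Floors from counts cover counting error only. The intervals given for interactions were built from the SE of the quasi-likelihood fit, which includes the estimated spread between libraries.

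Named genes are Plek2, the 12 highest and 12 lowest called genes that averaged 20 counts or more per library (gene models and receptor segments left out), and from each of 28 lists the 2 called genes of lowest adjusted p or, with none called, the most abundant. Other genes, such as S100a8, Il1b, Gsn, Rac2, Mpo, Elane, Epx, Igj, Jak2, Stat5a, Cfl1, Sgk1 and Cxcr2, were picked after their values were seen. The members, lists and tests were chosen with earlier results of these data known. A gene on more than 1 list counts in each. A few genes that the rule gives are not reported here.

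In simulated data (13270 genes with an interaction set for 50 genes per fold) the test recovered 38% of genes at 1.5-fold, 70% at 2-fold, 98% at 3-fold and 88% at 4-fold, and 10.9% of its calls were false. Alternatives were other scaling, DESeq2 1.42.0, limma-voom (limma 3.58.1), other filters, autosomes alone, a fold minimum of 2, replicate blocks and each library left out.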

Additional observations from a re-analysis of the deposited data

Results flagged for a closer look

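Results are listed here because the difference between the 2 populations was itself tested and passed (edgeR quasi-likelihood test, adjusted p below 0.05). This holds for 698 negative and 29 positive interactions. Among the named genes, 13 also passed in each population by itself in opposite directions, lower with the Plek2-/- label in erythroblasts and higher in progenitors. Their interactions were -3.66 for Plek2, -2.68 for Ankrd22, -2.45 for Ifitm6, -1.99 for Anxa1, -1.57 for Cebpe, -1.24 for Serpinb1a, -1.25 for Hdc and -0.90 for Id2. They were -1.11 for Vasp, -1.80 for Fas, -1.54 for Pfkfb4, -1.66 for Slc16a3 and -1.58 for Plaur. With any 1 library left out, 1 to 12 of the 13 passed in both populations. The count was 1 without the second erythroblast library labelled Plek2+/+, 2 without the second labelled Plek2-/- and 6 without the first labelled Plek2+/+. Plek2 passed in both populations in all 8 such fits. No explanation for these genes was tested.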

How the results depend on the processing

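Against 727 calls (29 positive, 698 negative; 446 in erythroblasts, 513 in progenitors), no filter on low counts gave 1182 (82, 1100; 1073, 902) and a 2-fold minimum gave 338 (2, 336; 44, 185). With 10 CPM in 2 libraries 15 positive genes passed. Leaving out 1 library gave 392 to 1143 calls, 2 to 49 positive and 390 to 1108 negative, and 15 to 961 in erythroblasts and 165 to 738 in progenitors. The other scalings, tools and gene sets stayed within 1.5 times of these counts, and the median of all genes lay between -0.03 and 0.07. The replicate block by number gave 725 interactions (28 positive, 697 negative), 448 in erythroblasts and 500 in progenitors; a replicate block per label, with erythroblast and progenitor libraries of 1 number as a pair, gave 838 (50 positive, 788 negative). Same-numbered libraries correlated at -0.08 to 0.10 in their deviations, so no pairing of the libraries was shown. Il2rb, at 0.03, turned to -0.047 with 10 CPM in 2 libraries, and to -0.14, -0.45, -0.004 and -0.12 without the first erythroblast library labelled Plek2+/+, the second Plek2-/- labelled erythroblast, the first progenitor library labelled Plek2+/+ and the first Plek2-/- labelled progenitor library, with 0.28 as the highest value without a library. Mki67, at 0.10, turned to -0.10 and -0.03 without the first and the second of these, with 0.22 as the highest. Beta-s passed without a filter at -1.26 and without the first Plek2-/- labelled progenitor library at -1.72. The cause of these changes was not tested. Single genes in these settings kept their side of the threshold 1064 times and lost it 126 times. List medians moved by more than the replicate spread 75 times and stayed within it 429 times. A library left out leaves 1 in its group, which is assumed to vary like the other groups.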
